A study of Mus musculus with 12 samples.

Results

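Heat shock and chaperone genes are described here in mouse colon, for the 10 genes Hspa1a, Hspa1b, Hspa5, Hspa8, Hsph1, Hsp90aa1, Hspb1, Dnajb1, Hspd1 and Hspe1. They were chosen by gene name from a table of 54532 genes, and each name matched a single row. All 10 passed the filter on low counts, as did 16904 genes in all. RNA-Seq covered the colonic tissue of 12 male wild-type C57BL/6J mice, which entered the study at 5 weeks of age, in 4 groups of 3. The control group was not treated and drank water. The model group received dextran sodium sulfate (DSS), which injures the epithelium of the colon. The Rhy group received DSS and rhynchophylline (Rhy), a plant alkaloid, at a dose that the labels of the sequenced mice do not give. The DXM group received DSS and the glucocorticoid dexamethasone (DXM) at 4 mg/kg.

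Chaperones bind proteins that are not yet folded or have lost their fold, and most of them release the protein in cycles driven by ATP. Under heat or other stress, heat shock factor 1 binds heat shock elements in the promoters of many cytosolic and mitochondrial chaperone genes. A separate pathway, the unfolded protein response, acts on chaperones of the endoplasmic reticulum (ER) when that compartment is loaded with unfolded protein, and colon epithelium is rich in secretory cells in which that compartment is large.

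Promoter sequences were taken from RefSeq on GRCm38.p6, from 250 bases before to 50 bases after each listed start, and 8 of the 10 genes had one. Hspa8 and Hsp90aa1 were not matched. The sequences below were selected because they carry the elements by which these genes are usually grouped, and because some of the genes share them. Capitals mark the heat shock element, searched as GAANNTTC or TTCNNGAA, each of which reads the same on both strands. In the Hspa5 line, capitals mark the ER stress element, searched on both strands as CCAAT and CCACG with any 9 bases between them. The windows lie at chr17:34972207-34972306 (minus strand) for Hspa1a, chr5:135887769-135887868 (plus) for Hspb1, chr5:149636351-149636380 (minus) for Hsph1, chr1:55088053-55088082 (plus) for Hspe1 and chr2:34772020-34772049 (plus) for Hspa5.
Hspa1a: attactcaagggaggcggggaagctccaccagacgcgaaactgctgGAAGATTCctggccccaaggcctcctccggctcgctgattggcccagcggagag
Hspb1: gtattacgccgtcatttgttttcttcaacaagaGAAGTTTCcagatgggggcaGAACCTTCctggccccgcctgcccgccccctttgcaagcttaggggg
Hsph1: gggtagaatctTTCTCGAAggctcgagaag
Hspe1: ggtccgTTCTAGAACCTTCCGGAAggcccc
Hspa5: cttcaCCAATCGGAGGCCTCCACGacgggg

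A heat shock element in these letters lay before a listed start of 6 of the 8 genes with a promoter sequence (Hspa1a, Hspa1b, Hsph1, Hspb1, Hspd1 and Hspe1). The 8 genes had 11 listed promoters, and 1 with a match was enough. Of all 32851 listed promoters, 15.1% held a match anywhere in their 300 bases, which is not the same measure. The Hspa1a window from 150 to 51 bases before the start is the same in Hspa1b at all 100 positions (chr17:34959289-34959388, minus strand), and the whole 300-base promoters of these paralogs differ at 4 positions. The capitals of the Hspe1 line are 3 overlapping elements, 89, 84 and 79 bases before the Hspe1 start. Hspd1 is transcribed away from Hspe1 on the opposite strand, and the same bases lie 144, 139 and 134 bases before 1 of its 2 listed starts, and inside an annotated exon of a longer Hspd1 transcript. The Hsph1 and Hspa5 sites likewise lie in annotated exons of transcripts with earlier starts. The ER stress element of Hspa5 begins 65 bases before its start, and 0.119% of all promoters held this motif. No heat shock element was found in the windows of Dnajb1 or Hspa5. A match of letters is a description and does not show that a factor was bound.

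The libraries held 14346478 to 17749716 counts. Mitochondrially encoded genes took 6.33% to 25.7% of them, and the share was highest in DXM 1 (25.7%), Rhy 1 (23.8%), control 1 (21.0%) and control 2 (17.0%). The 6 colon epithelium markers summed to 8004 to 15111 CPM (counts scaled to library size, on the TMM scale). Hoxb13, a gene of the distal colon, was under 5 CPM in control 3, model 3 and Rhy 1 and at 72.0 CPM or more elsewhere. Model 1 and model 2 were much more alike than any other libraries, with a dispersion of 0.00201, where each of the 65 remaining pairs had 0.0606 to 0.353. The variance between them was 2.86 times that of counting alone over 15996 genes, which cannot show whether they came from separate mice. They were kept as 2 samples, as labelled, and merged in an alternative. No source states that the libraries came from separate cages or experiments, so the p-values measure the spread between these libraries.

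Levels per gene length were compared in the deposited FPKM values. Hspa8, the constitutive cytosolic chaperone of the Hspa family, was the highest, with a median of 230 FPKM over the 12 libraries (158 to 542). Hspd1 followed at 102 (27.4 to 142), Hspe1 at 95.7 (37.5 to 119), Hspa5 at 89.3 (34.9 to 153) and Hspb1 at 72.9 FPKM (39.5 to 184), and the ranges of these 4 genes overlapped. Hsp90aa1 had a median of 43.0 FPKM (27.5 to 107), Dnajb1 of 18.9 (13.3 to 30.2) and Hspa1b of 13.4 (9.83 to 74.1), while Hsph1 at 5.90 (2.01 to 13.8) and Hspa1a at 1.54 FPKM (0.943 to 11.04) were the lowest. Each of these overlapped the next in range. The spread over libraries was not the same for each gene: the highest CPM was 2.30 times the lowest for Dnajb1, 3.27 times for Hspe1, 3.56 times for Hspa8, 7.11 times for Hsph1, 7.68 times for Hspa1b and 11.9 times for Hspa1a.

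**Figure D1:**
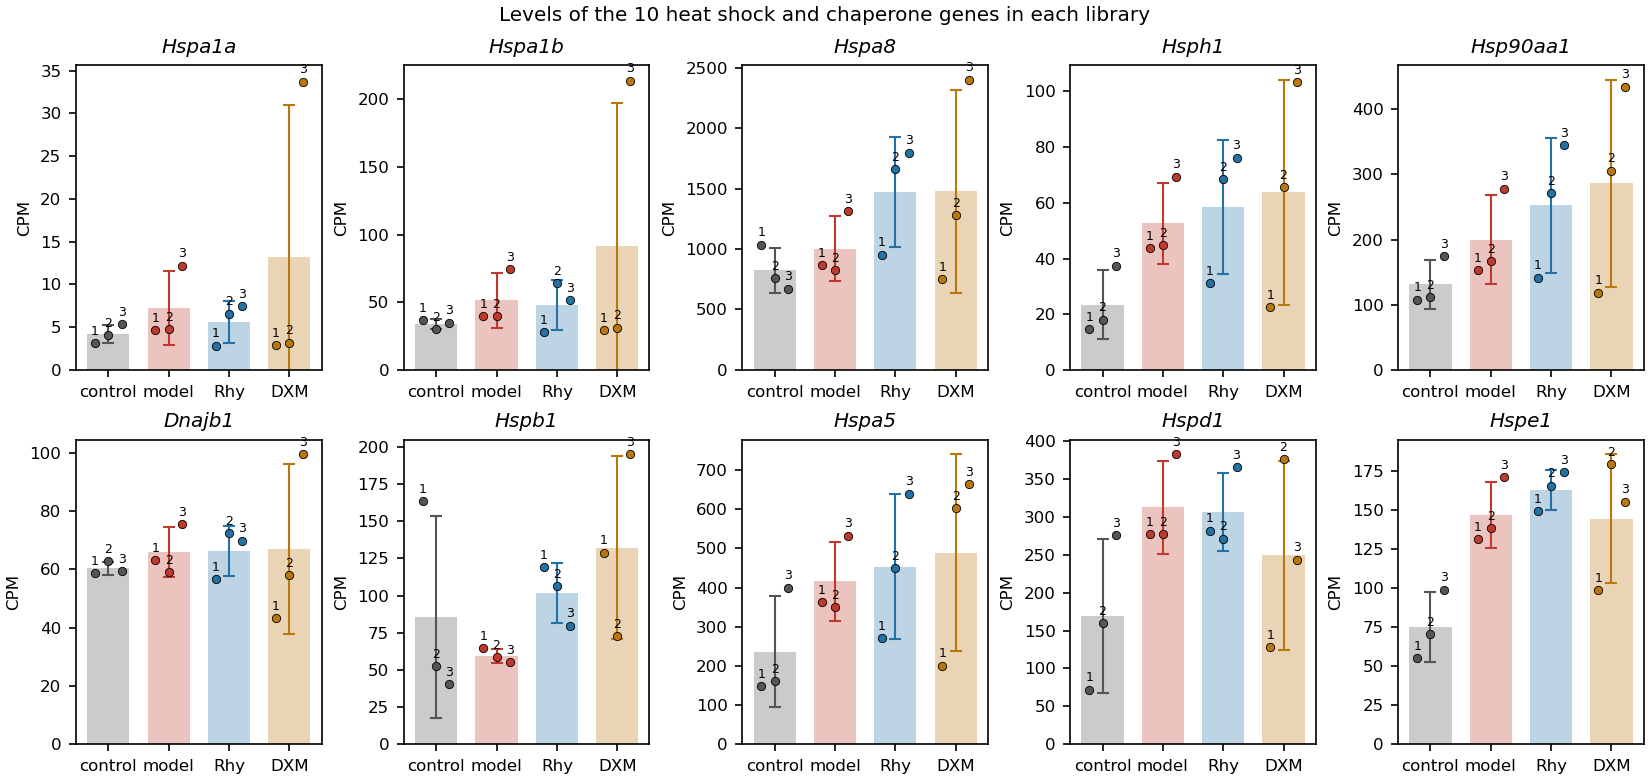
Level of each gene in CPM (vertical axes, each from 0) in the 4 groups. Points are single libraries with their replicate number, bars are group means and error bars are the SD of 3 libraries; Hspe1 is lower in each control library than in each model and Rhy library, and DXM 3 stands far above the others in Hspa1a and Hspa1b.

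The question asked of each comparison was whether colitis, Rhy or DXM changed the level of these genes. With edgeR, 0 of the 10 genes passed an adjusted p of 0.05 in any of 6 comparisons between groups, and neither did any of the 16904 genes. DESeq2 on the same 12 libraries called 46 genes in model against control, 5 in Rhy against model, 52 in DXM against model, 33 in Rhy against control, 1051 in DXM against control and 9 in DXM against Rhy. Of the 10 genes, DESeq2 called Hspe1 alone, in DXM against control (log2 fold change 0.90, adjusted p = 0.0339). It gave no p for Hspa1a in model against control.

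Most of the 10 genes had higher fitted levels in each DSS-treated group than in the control group. In model against control, 9 of 10 log2 fold changes were above 0, as were 50.7% of all genes, and their median was 0.69, where that of all genes tested was 0.01. In Rhy against control all 10 were above 0 (47.7% of all genes; median 0.85), and in DXM against control all 10 were above 0 (53.8% of all genes; median 1.00, against 0.06 for all genes). These 3 comparisons share the control libraries, so they are not separate evidence. The differences among the DSS-treated groups were smaller, with medians of 0.14 for Rhy against model (7 of 10 above 0, beside 48.3% of all genes), 0.40 for DXM against model (8 of 10, beside 48.5%) and 0.12 for DXM against Rhy (8 of 10, beside 51.5%). Single libraries decided several of these values. Without DXM 3, 7 of 10 were above 0 in DXM against control (median 0.44), 3 of 10 in DXM against model (median -0.16) and 0 of 10 in DXM against Rhy (median -0.33). Without model 3 the median of model against control was 0.21, with 7 of 10 above 0, and that of Rhy against model was 0.34, with 10 of 10. Rhy against model had 4 of 10 above 0 without Rhy 3 (median -0.05), and DXM against Rhy 3 of 10 without Rhy 1 (median -0.13).

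The colon epithelium markers differed between the same groups. Their sums were 11819 to 15111 CPM in control, 9385 to 11883 CPM in model, 12378 to 14711 CPM in Rhy and 8004 to 10997 CPM in DXM, so every DXM library was below every control library and model overlapped control. In DXM against control 5 of the 6 markers were below 0 (median -0.66), where 53.8% of all genes were above 0. Epcam, Vil1 and Krt20 were at an unadjusted p under 0.05, beside 18.9% of all genes. In model against control 5 of the 6 markers were below 0 (median -0.39), with Vil1 and Krt20 at that level, beside 9.62% of all genes. The part of epithelial content in the differences of the 10 genes was not tested.

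At an unadjusted p under 0.05, edgeR listed 2 of the 10 genes in model against control, Hspe1 and Hsph1, where 9.62% of all genes passed. It listed the same 2 in Rhy against control, where 11.6% of all genes passed, and 4 in DXM against control (Hspe1, Hsph1, Hsp90aa1 and Hspa1b), where 18.9% did. It listed 1 in DXM against model (Hspb1, background 7.69%), 0 in Rhy against model (3.72%) and 0 in DXM against Rhy (5.02%). These counts depended on single libraries. In model against control the count was 4 without control 3 and 1 without any of the other 5 libraries in turn. In Rhy against control it was 5 without control 3 or Rhy 1 and 1 without control 2, Rhy 2 or Rhy 3. In DXM against control it was 7 without DXM 1 and 1 without control 2 or DXM 3, and in DXM against model it was 2 without DXM 1 and 0 without any one of the model libraries. The share of all genes at this level moved in the same fits. In model against control it was 16.2% without control 3 and 5.12% to 9.73% without each of the other libraries in turn. In Rhy against control it was 16.9% without control 3, 16.3% without Rhy 1 and 6.87% to 8.34% without control 2, Rhy 2 or Rhy 3. In DXM against control it was 20.9% without DXM 1, 11.9% without control 2 and 9.48% without DXM 3, and in DXM against model 8.17% without DXM 1 and 4.44% to 5.23% without a model library. With model 1 and model 2 merged, the share was 4.99% in model against control, 1.63% in Rhy against model and 4.24% in DXM against model.

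Groups that did not overlap were counted as well. In model against control, Hspd1, Hspe1, Hspa1b and Hsph1 were higher in every model library than in every control library, 4 of 10 where 10.4% of all genes were so. The other counts were 1 each, for Hspb1 in Rhy against model (background 5.51%), Hspb1 in DXM against model (10.4%) and Hspe1 in Rhy against control (7.5%). No gene of the 10 had groups apart in DXM against control, where 9.77% of all genes were higher throughout, or in DXM against Rhy (7.45%). In the exact two-sided permutation test, 3 libraries against 3 cannot give a p below 0.1, and these 7 cases stood at that value.

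**Figure D2:**
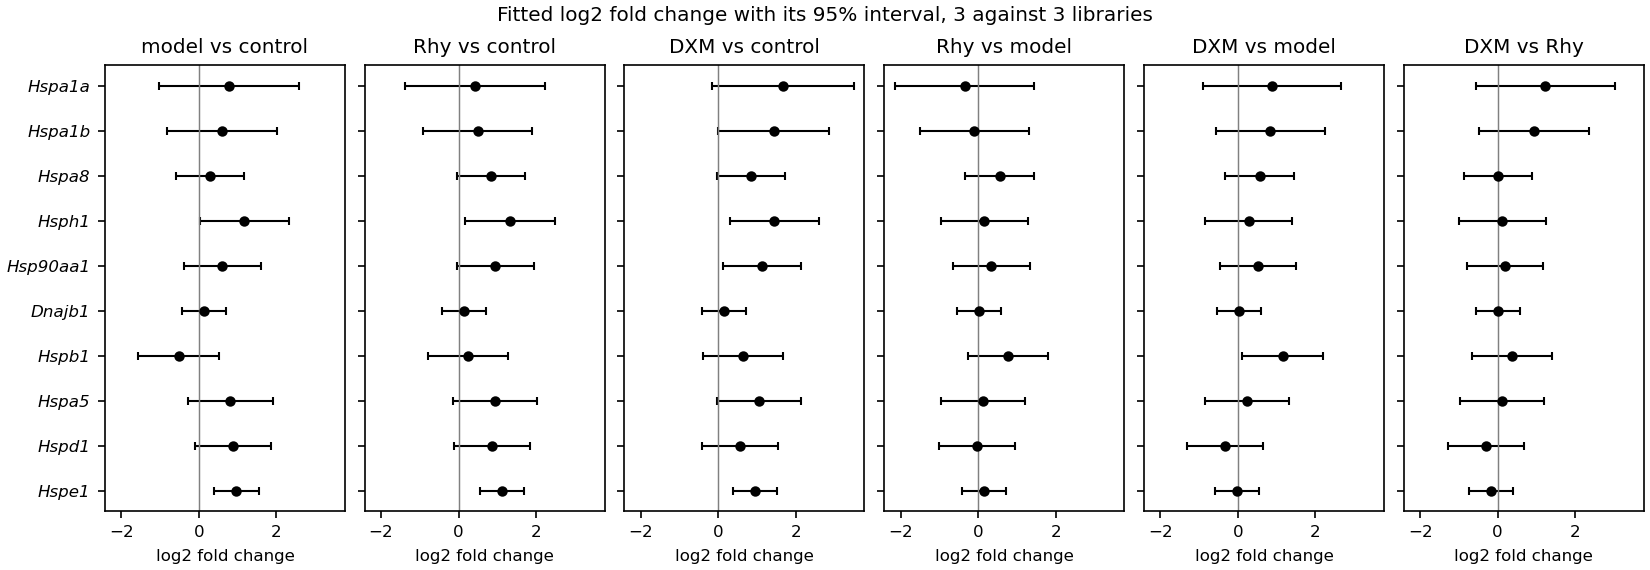
Fitted log2 fold change (horizontal axis) of each gene in 6 comparisons, with 95% intervals from edgeR. In the comparisons with control nearly all points lie to the right of 0, and only those of Hspe1 and Hsph1 in all 3, and of Hsp90aa1 and Hspa1b in DXM against control, have intervals that leave out 0. The Hspa1b interval leaves it out barely, with a lower end of 5.3e-05.

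Hspe1 and Hspd1 encode the co-chaperonin and the chaperonin of the mitochondrial matrix, which together form the folding chamber for imported proteins. Hspe1 (ENSMUSG00000073676, chr1, 55088132 to 55091307 on mm10) was at 55.0, 70.7 and 99.2 CPM in control, 132, 138 and 171 CPM in model, 149, 166 and 174 CPM in Rhy and 98.9, 180 and 156 CPM in DXM. Every control library lay below every model and Rhy library, while DXM 1 lay just under control 3. The group means were 75.0 ± 22.4 CPM (SD, n = 3) in control, 147 ± 21.2 in model, 163 ± 12.7 in Rhy and 145 ± 41.5 in DXM. Its log2 fold change was 0.97 ± 0.26 (SE; 1.96-fold) in model against control, with an adjusted p of 0.459 in edgeR. The corresponding values were 1.12 ± 0.26 (2.18-fold; adjusted p = 0.364) for Rhy and 0.95 ± 0.26 (1.93-fold; adjusted p = 0.13) for DXM against control. Rhy differed from model by 0.15 with a 95% interval of -0.41 to 0.71, and DXM by -0.02 with an interval of -0.58 to 0.54. Of the 10 genes, Hspe1 had the smallest p in the test of any difference among the 4 groups, rank 229 of 16904 (adjusted p = 0.388 in edgeR).

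Hspd1 (ENSMUSG00000025980, chr1, 55077835 to 55088243) was at 72.2, 160 and 276 CPM in control, 278, 277 and 383 CPM in model, 282, 271 and 366 CPM in Rhy and 128, 377 and 244 CPM in DXM. Control 1, DXM 1 and control 2 were the lowest libraries, and control 3 lay just under model 1 and model 2 and above Rhy 2. The log2 fold change in model against control was 0.89 ± 0.45 (adjusted p = 0.551 in edgeR), and in Rhy against model it was -0.03 with a 95% interval of -1.01 to 0.95. The annotated Hspd1 and Hspe1 genes overlap by 112 bases on opposite strands, and whether strand was used in counting is not given in the sources used here, so reads in the overlap cannot be assigned with certainty.

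Hspa1a and Hspa1b encode near-identical stress-inducible cytosolic chaperones. Of the 100-base windows of the Hspa1a transcript, 47.1% also occur in Hspa1b, so their counts are uncertain where reads could fit both, and Gm20481 overlaps Hspa1a over 2225 bases on the other strand. Hspa1b (ENSMUSG00000090877, chr17, 34956436 to 34959238) was at 36.9, 30.04 and 34.97 CPM in control, 39.5, 39.9 and 74.7 CPM in model, 27.8, 64.3 and 51.4 CPM in Rhy and 29.6, 31.3 and 214 CPM in DXM. DXM 3 alone was far above the rest, and DXM 1 and DXM 2 were at the level of the control libraries. Hspa1a (ENSMUSG00000091971, chr17, 34969190 to 34972156) followed a similar order at a lower level, with 33.7 CPM (666 counts) in DXM 3 and 2.83 to 12.2 CPM (33 to 205 counts) in the other 11 libraries. The log2 fold change of DXM against model was 0.83 ± 0.65 for Hspa1b and 0.88 ± 0.82 for Hspa1a, with adjusted p of 0.75 and 0.789 in edgeR. Without DXM 3 both turned negative, to -0.76 and -1.25. Against control, the DXM values of 1.43 and 1.66 likewise became -0.16 and -0.47 without DXM 3. The counts of both paralogs summed gave 34.1 to 40.3 CPM in control, 30.6 to 86.9 CPM in the model, Rhy and other DXM libraries and 248 CPM in DXM 3, so the excess of DXM 3 was as clear when reads were not divided between them.

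Hspa8 (ENSMUSG00000015656, chr9, 40800984 to 40810087) encodes the constitutive member of the same family, which most cells hold in quantity. Its CPM was 1036, 762 and 673 in control, 869, 825 and 1312 in model, 952, 1662 and 1797 in Rhy and 750, 1278 and 2400 in DXM. DXM 3, Rhy 3 and Rhy 2 were the highest and control 3 and DXM 1 the lowest, and every group overlapped every other. The log2 fold change was 0.28 ± 0.40 in model against control, 0.55 ± 0.41 in Rhy against model and 0.56 ± 0.41 in DXM against model (adjusted p = 0.852, 1.00 and 0.731 in edgeR). Without DXM 3 the value for DXM against model was 0.018, and without model 3 that for model against control was -0.0034.

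Hsph1 (ENSMUSG00000029657, chr5, 149614287 to 149636376) encodes a large relative of these proteins that exchanges their nucleotide. It was at 14.5, 18.1 and 37.5 CPM in control, 43.8, 44.8 and 69.3 CPM in model, 31.2, 68.6 and 76.2 CPM in Rhy and 22.6, 65.5 and 103 CPM in DXM. Each model library was above each control library, whereas Rhy 1 and DXM 1 lay within the range of the control group. The log2 fold change was 1.17 ± 0.52 in model against control (2.25-fold, adjusted p = 0.516 in edgeR), 1.33 ± 0.53 in Rhy against control (adjusted p = 0.383) and 1.45 ± 0.53 in DXM against control (adjusted p = 0.185). Between the DSS-treated groups the differences were small beside their errors, at 0.16 ± 0.52 for Rhy and 0.28 ± 0.52 for DXM against model.

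Hsp90aa1 (ENSMUSG00000021270, chr12, 110690605 to 110702728), the stress-responsive cytosolic chaperone of many signaling proteins, was at 108, 111 and 174 CPM in control, 153, 167 and 278 CPM in model, 142, 271 and 345 CPM in Rhy and 118, 306 and 434 CPM in DXM. The order of libraries was close to that of Hsph1, with DXM 3 highest and control 1 lowest, and control 3 overlapped the other 3 groups. Its log2 fold change was 0.61 ± 0.45 in model against control and 1.13 ± 0.46 in DXM against control, with adjusted p of 0.694 and 0.22 in edgeR. Dnajb1 (ENSMUSG00000005483, chr8, 83608193 to 83612653), a co-chaperone that brings substrates to the Hspa family and is itself a textbook heat shock gene, showed the narrowest range. It was at 58.7, 62.9 and 59.4 CPM in control, 63.1, 59.0 and 75.5 CPM in model, 56.7, 72.6 and 69.8 CPM in Rhy and 43.3, 58.0 and 99.6 CPM in DXM. The group means ran from 60.3 to 67.0 CPM, and the log2 fold change of model against control was 0.13 with a 95% interval of -0.44 to 0.69. DXM 1 and DXM 3 were its lowest and highest libraries, and the test of any group difference ranked it 16287 of 16904.

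Hspb1 (ENSMUSG00000004951, chr5, 135887919 to 135889563), a small heat shock protein that holds unfolded proteins without ATP and is abundant in muscle, was the only 1 of the 10 with a fitted level lower in model than in control. It was at 164, 52.4 and 40.3 CPM in control, 64.5, 58.6 and 55.3 CPM in model, 119, 106 and 79.8 CPM in Rhy and 129, 72.6 and 195 CPM in DXM. The model libraries were close together and below every Rhy and DXM library, while control 1 was above every library but DXM 3. Its log2 fold change was -0.52 ± 0.47 in model against control, and without control 1 it turned to 0.36. In Rhy against model it was 0.77 ± 0.48 (1.71-fold, adjusted p = 1.00 in edgeR), and in DXM against model 1.15 ± 0.48 (2.22-fold, adjusted p = 0.637). DESeq2 fitted on only the DXM and model libraries called Hspb1 (adjusted p = 0.0179), where it called 590 genes in all. That fit kept model 1 and model 2 as separate samples. With them merged, edgeR had 0 of the 10 genes at an unadjusted p under 0.05 in this comparison, beside 4.24% of all genes. The count was also 0 without any one of the model libraries.

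The smooth muscle markers moved with Hspb1. The 6 markers (Acta2, Actg2, Myh11, Tagln, Cnn1 and Des) summed to 3127 to 6059 CPM in control, 3519 to 4583 CPM in model, 5443 to 6319 CPM in Rhy and 4877 to 8811 CPM in DXM, so the sum too was higher in each Rhy and DXM library than in each model library. Within groups, deviations of Hspb1 and of the mean of these markers in log2 CPM correlated over 11 samples with model 1 and model 2 averaged (r = 0.91, exact permutation p = 0.0185, adjusted 0.037 over 8 relations; rho = 0.85, p = 0.0162, adjusted 0.0259). Without control 1 and control 3, the farthest on the Hspb1 axis, r was 0.82. The part of muscle content in the Hspb1 differences was not tested, and in bulk tissue a change in the number of cells of a type and in RNA per cell cannot be told apart.

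Hspa5 (ENSMUSG00000026864, chr2, 34771970 to 34777547), the main chaperone of the ER lumen and the sensor partner of the unfolded protein response, was at 147, 161 and 400 CPM in control, 363, 350 and 532 CPM in model, 271, 449 and 640 CPM in Rhy and 200, 603 and 664 CPM in DXM. Control 1, control 2 and DXM 1 were the lowest, and control 3 was above model 1, model 2 and Rhy 1. The log2 fold change was 0.82 ± 0.50 in model against control (1.76-fold, adjusted p = 0.616 in edgeR), 0.94 ± 0.50 in Rhy against control and 1.05 ± 0.50 in DXM against control. Rhy and model differed by 0.13 with a 95% interval of -0.95 to 1.20.

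The order of libraries was much the same for several genes, and it was read beside the mitochondrially encoded share. The mean log2 CPM of the 10 genes was lowest in control 1 (6.00), control 2 (6.00) and DXM 1 (6.12), which are 3 of the 4 libraries with the highest share. It was highest in DXM 3 (7.83), with a share of 7.48%. Control 3 had the smallest share, 6.33%, and a mean of 6.43. With the share as a term in the edgeR fit, an alternative chosen after seeing the data, Hspe1, Hsph1 and Hspa5 passed the threshold in Rhy against control (log2 fold changes 1.21, 1.48 and 1.12, adjusted p = 0.0195, 0.0199 and 0.0208) and in DXM against control (0.90, 1.23 and 0.92, adjusted p = 0.0262, 0.0225 and 0.0262). In the same fits 315 and 652 genes passed. No gene of the 10 passed in model against control, Rhy against model or DXM against model with this term.

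**Figure D3:**
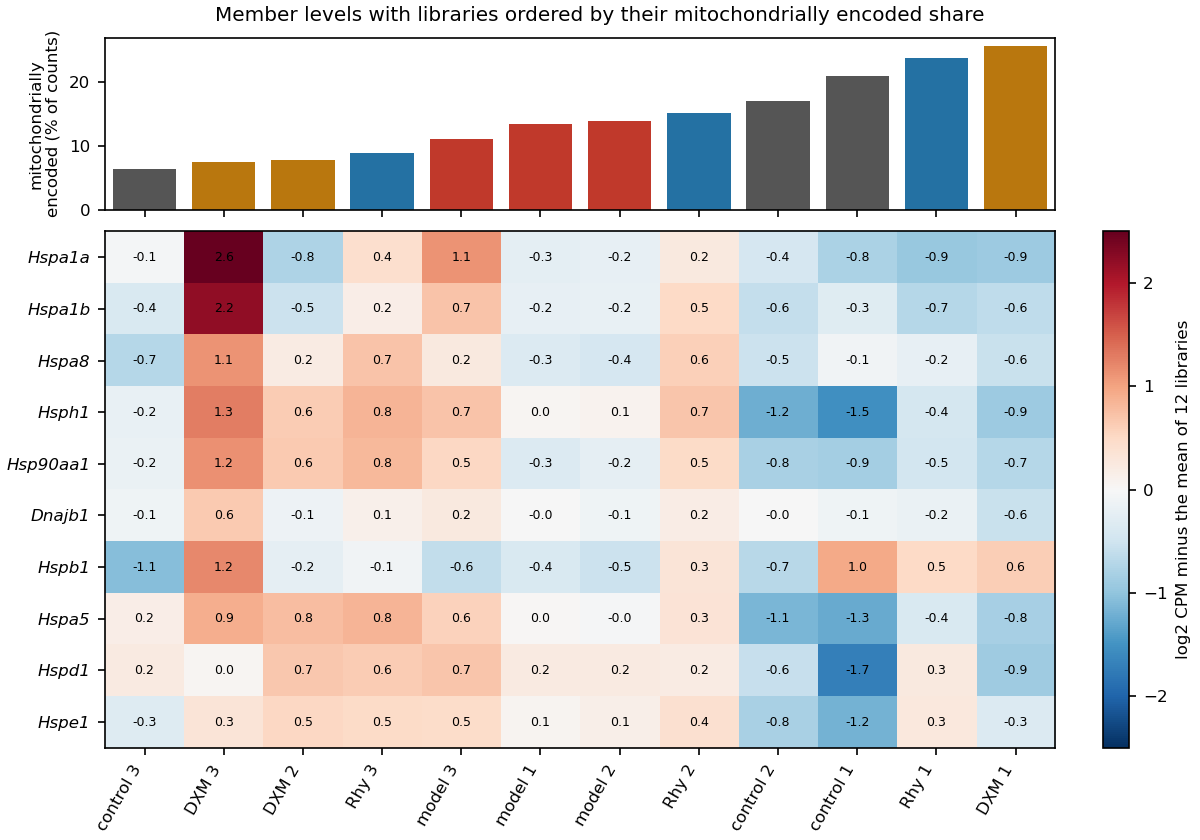
Upper panel, mitochondrially encoded share of the counts of each library in percent, with libraries in rising order and coloured by group (control grey, model red, Rhy blue, DXM ochre); lower panel, log2 CPM of each gene minus its mean over the 12 libraries, red above and blue below. Control 2, control 1 and DXM 1 at the right are mostly blue, but control 3 at the far left, with the smallest share, is also below the mean in 8 of the 10 genes, and Rhy 1, with the second highest share, is above it in 3. DXM 3 has the deepest red in Hspa1a and Hspa1b.

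Relations between genes were tested as deviations from the group means, so that group differences do not enter, in 8 relations over 11 samples. Each test enumerated 432 arrangements within groups, and the smallest p they can give is 0.00231. Other pairs were not tested, so the values do not show that a relation is particular to its pair. Hsph1 and Hsp90aa1 varied together (r = 0.98, exact permutation p = 0.00231, adjusted 0.0185; rho = 0.95, p = 0.00231, adjusted 0.0185; r = 0.94 without DXM 1 and Rhy 1). So did Hspd1 and Hspe1 (r = 0.96, exact permutation p = 0.00463, adjusted 0.0185, and r = 0.93 without control 1 and DXM 1). Their rho was 0.91 (exact permutation p = 0.00926, adjusted 0.0247). These genes have promoter bases in common and overlap by 112 bases, and the part of either in the relation was not tested. Hspa1a and Hspa1b gave r = 0.97 (exact permutation p = 0.037, adjusted 0.0525; rho = 0.91, p = 0.044, adjusted 0.0586), and r = 0.90 without DXM 3 and DXM 1; these genes may share reads. Hsph1 with Dnajb1 gave r = 0.79 (exact permutation p = 0.0394, adjusted 0.0525; rho = 0.82, p = 0.0139, adjusted 0.0259) and r = 0.60 without DXM 1 and Rhy 1. Hsph1 with Hspa8 gave r = 0.70 (exact permutation p = 0.0903, adjusted 0.103; rho = 0.60, p = 0.15, adjusted 0.172) and only 0.36 without those libraries, so this relation did not pass and rested on them.

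Hspa5 was set beside the mean of 32 other ER chaperones and stress genes and beside plasma cells, which secrete antibody. With the ER list it gave r = 0.99 (exact permutation p = 0.00694, adjusted 0.0185; rho = 0.99, p = 0.00463, adjusted 0.0185; r = 0.98 without DXM 1 and control 3). With the plasma cell markers it gave r = 0.32 (exact permutation p = 0.366, adjusted 0.366; rho = 0.19, p = 0.623, adjusted 0.623; r = 0.47 without the same libraries). The 6 plasma cell markers had their lowest sum in Rhy 1 (603 CPM), which had the lowest Hspa5 of the Rhy group (271 CPM). Their highest sum was in control 1 (11617 CPM), which had the lowest Hspa5 of all libraries (147 CPM). In model against control all 6 markers were below 0 (median -1.99), where 50.7% of all genes were above 0. The part of plasma cell content in the Hspa5 differences was not tested.

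**Figure D4:**
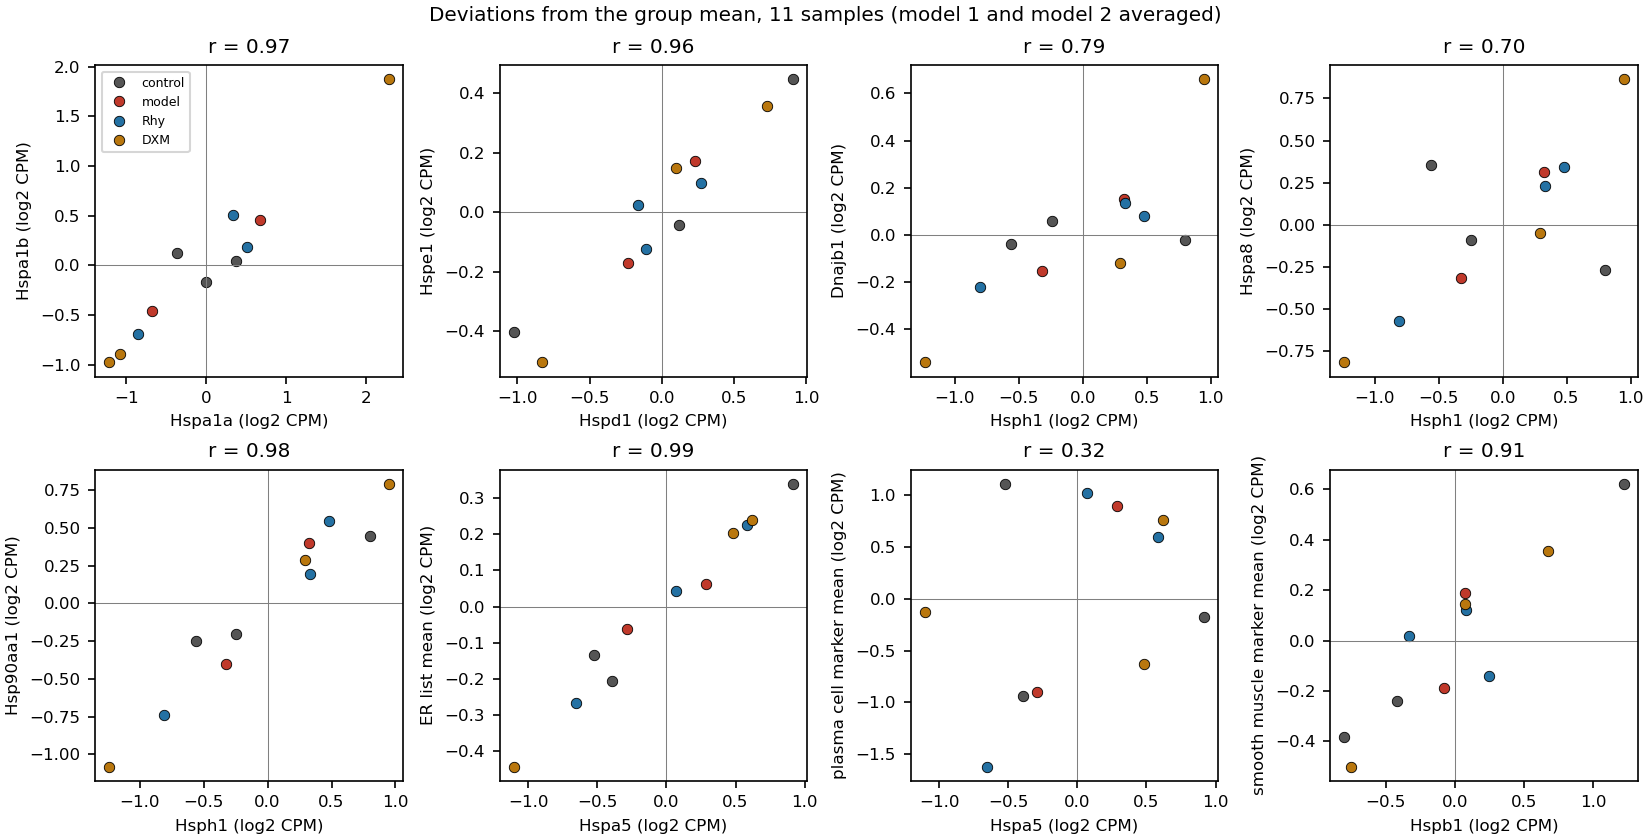
Deviations of log2 CPM from the group mean for 8 relations, 1 point per sample with model 1 and model 2 averaged, coloured by group; r is Pearson's over 11 samples. Hspa5 lies on a line with the mean of the ER list and scatters against the plasma cell marker mean, and Hspb1 follows the smooth muscle marker mean.

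Over the 12 libraries, groups included, the 5 genes with the highest Pearson correlation of log2 CPM were listed for Hspa1b, Hspa5 and Hspd1. For Hspa1b they were Hspa1a (r = 0.97), Dnajb1 (0.90), Ccnd3 (0.84), Cd63-ps (0.83) and Nr4a2 (0.83). For Hspa5 they were Eprs, Prpf19, Hsph1, Zmynd19 and Ssr1, at 0.98 each. For Hspd1 they were Prdx1 (0.99), Atic, Gm8991, Usp14 and Gmps (each 0.98). On this measure Hspd1 had 0.89 with Hspe1, and Hsph1 had 0.96 with Hsp90aa1. These values describe the libraries and include their differences in depth, tissue content and group.

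Other chaperone genes were counted by list. Of 24 tested cytosolic chaperones and co-chaperones, 19 had a log2 fold change above 0 in model against control (median 0.31), 6 passed an unadjusted p of 0.05, all higher, and 12 had groups apart, all higher in model, beside backgrounds of 9.62% and 10.4%. Hspbp1, a nucleotide exchange factor, was at 17.6, 22.3 and 26.3 CPM in control and 38.9, 40.3 and 42.8 CPM in model (log2 fold change 0.88 ± 0.25). Ahsa1, which stimulates the ATPase of Hsp90aa1 and its relatives, was at 55.0, 52.2 and 54.2 CPM in control and 74.9, 73.7 and 94.8 CPM in model (0.59 ± 0.19). Both lay apart from control in the model libraries and were again higher in each Rhy and DXM library than in each control library. Ptges3, a co-chaperone of the same proteins, had a log2 fold change of 0.53 ± 0.28. In Rhy against model and DXM against model, 0 and 1 of the 24 passed at the unadjusted level (backgrounds 3.72% and 7.69%), and the medians were 0.12 and 0.04.

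The cytosolic chaperonin TRiC, which folds actin and tubulin, had all 8 subunits above 0 in model against control (median 0.43), beside 50.7% of all genes. Cct3 (0.70 ± 0.22) and Cct2 (0.43 ± 0.18) were at an unadjusted p under 0.05, beside 9.62% of all genes. All 8 were also above 0 in Rhy against control, 7 with groups apart, beside 7.5% of all genes. Of the 12 other mitochondrial chaperones and proteases, by contrast, 7 were above 0 and 5 below in model against control, with a median of 0.08. Grpel2, a nucleotide exchange factor of the matrix, was lower in each model library (48.7 to 53.8 CPM) than in each control library (64.0 to 93.4 CPM), with a log2 fold change of -0.70 ± 0.21. Lonp1, a matrix protease, had 0.44 ± 0.17. The values of Hspd1 and Hspe1 were thus above the median of this mixed list of chaperones and proteases in this comparison, a difference that was not tested. Within the list, single values ran from -0.70 to 0.66.

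The 32 ER genes were divided too, with 19 above 0 and 13 below in model against control (median 0.13). The chaperones Hyou1 (0.85), Canx (0.59), Calr (0.52) and Hsp90b1 (0.38) were among the 19. The co-chaperone Dnajb9 (-0.47) and the stress genes Ddit3 (-0.36) and Atf4 (-0.35) were among the 13. Groups were apart and higher in model for 7 of the 32, beside 10.4% of all genes. They were apart and lower for 1, beside 6.61% of all genes. At the unadjusted level 2 passed, where 9.62% of all genes did and 4.51% were lower, and both were lower: Edem1, which takes misfolded glycoproteins to degradation (-0.48 ± 0.20), and Trib3, a stress-induced pseudokinase (-1.25 ± 0.55, at 0.276 to 1.87 CPM in these 6 libraries and therefore resting on few counts). In DXM against model, 14 were above 0 and 18 below (median -0.03). Groups were apart and higher in DXM for 3, beside 10.4% of all genes, and apart and lower for 5, beside 12.2%. At the unadjusted level 3 passed (background 7.69%). Dnajb11, a co-chaperone of Hspa5, was the lower 1 of these, with -0.40. Trib3 had 2.38 ± 0.55 and Serpinh1, the collagen chaperone, 1.24 ± 0.37, and each was higher in every DXM library than in every model library. The heat shock factor list had a median of 0.02 over 4 genes in model against control, and Hsf1 had a log2 fold change of 0.13 ± 0.16. It was 0.29 ± 0.16 in DXM against model, with groups apart.

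The other 5 small heat shock proteins, several of which are muscle proteins like Hspb1, were all above 0 in Rhy against model (median 0.59) and in DXM against model (median 0.64). Of all genes, 48.3% and 48.5% were above 0 there. Hspb8 was at 39.4, 39.3 and 36.0 CPM in model, 42.5, 49.2 and 41.9 CPM in Rhy and 68.0, 39.2 and 86.9 CPM in DXM. Cryab had log2 fold changes of 0.66 ± 0.33 and 0.64 ± 0.33 in these comparisons. They stood beside the higher smooth muscle markers given above.

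Immediate early genes, which respond within minutes to stress and to handling of tissue, went the other way in model against control. All 8 were below 0 there (median -0.90), where 50.7% of all genes were above 0. An unadjusted p of 0.05 was passed by 4 (Jun, Junb, Egr1 and Dusp1), where 9.62% of all genes passed and 4.51% were lower. Jun was at 306, 341 and 279 CPM in control and 123, 120 and 202 CPM in model. All 8 were above 0 in Rhy against model (median 0.41), beside 48.3% of all genes, and 7 in DXM against model (median 0.86), beside 48.5%. In DXM against model, Fos, Egr1 and Dusp1 were at an unadjusted p under 0.05, beside 7.69% of all genes. None of the 8 passed the adjusted threshold in either comparison. DXM 3, with the highest Hspa1a and Hspa1b, also had the highest sum of these 8 genes, 1481 CPM, against 694 and 1062 CPM in the other DXM libraries and 1276 to 1351 CPM in control. Their part in the levels of DXM 3 was not tested.

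**Figure D5:**
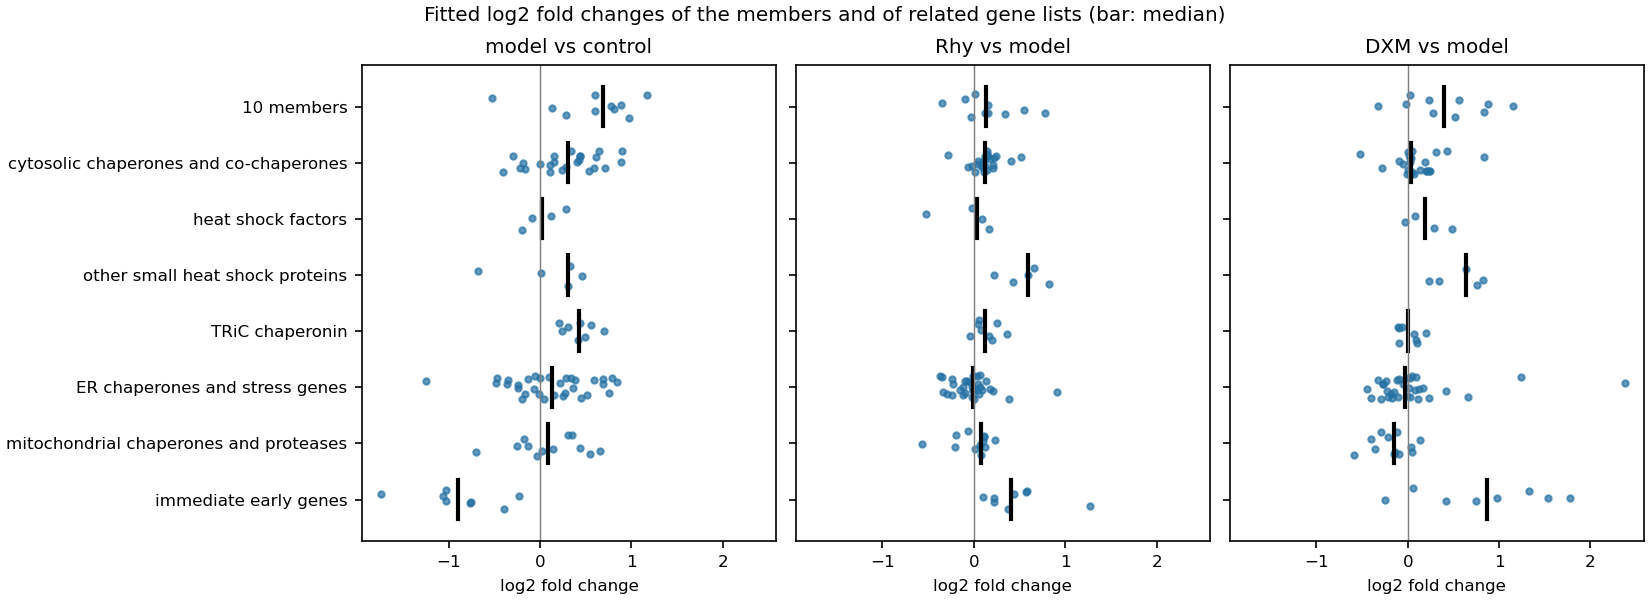
Fitted log2 fold changes (horizontal axis) of the 10 genes and of 7 related lists in 3 comparisons, 1 point per gene with the median as a bar. The 10 genes and the TRiC list lie mostly above 0 in model against control, the immediate early genes below, and the small heat shock proteins above 0 in both comparisons of a drug with model.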

How the data were processed

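RNA-Seq reads of 12 colon libraries were processed by the authors before deposit. Their notes list HISAT2 2.0.5, featureCounts 1.5.0-p3, DESeq2 1.16.1 and mm10; how multi-mapping reads and strand were treated is not given in the sources used here. The deposited counts are whole reads per gene without normalization, and the deposited FPKM values are scaled to gene length and library size; FPKM served only to order levels between genes. No column lacked a sample (0).

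Groups came from the treatment labels. The test was edgeR 4.0.16 under R 4.3.3: filterByExpr with a minimum count of 10, TMM scaling, and quasi-likelihood tests in 1 fit of the 12 libraries, two-sided, with Benjamini-Hochberg adjustment over 16904 genes within each of 6 comparisons and a threshold of 0.05. Standard errors were the log2 fold change divided by the square root of F. CPM carry no prior count; log2 CPM for relations carry a prior count of 2. The test was tested on simulated counts first. Alternatives were RLE scaling, no filter beyond any count, fits of the compared groups alone, DESeq2 1.42.0, a replicate block, merged model 1 and model 2, a Hoxb13 term, summed paralogs and each library left out; terms for mitochondrial share and the omission of mitochondrial genes were added after seeing the data. Total counts limit the precision of Hspa1a and Trib3 most.

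The genes, lists and tests were chosen with earlier results of these data known. Named genes were the 10 genes, up to 3 per list with the smallest p over the 4 groups, and the 5 most correlated genes for 3 of the 10. A few other genes of the lists were named for their values. Promoters were searched with Python 3.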

Additional observations from a re-analysis of the deposited data

How the results depend on the processing

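Of 810 values of 50 log2 fold changes of single genes (10 genes in 5 comparisons, without DXM against Rhy) under the alternatives, 765 kept their direction and did not pass the threshold, 37 changed sign, 8 passed the threshold and 0 lost it, since none had passed. A value without a p was counted as not passing, as for Hspa1a with DESeq2 in model against control. The number of genes called was 0 in every comparison with edgeR. In model against control it was 1 with any count, 1 with only the groups compared, 46 with DESeq2, 167 with DESeq2 on the groups compared, and 0 to 1 with a library left out. In Rhy against model it was 5 with DESeq2, 41 with DESeq2 on the groups compared, 1 with the mitochondrial share term, and 0 to 1 with a library left out. In DXM against model it was 2 with only the groups compared, 52 with DESeq2 and 590 with DESeq2 on the groups compared. In Rhy against control it was 1 with any count, 33 with DESeq2, 2 with DESeq2 on the groups compared and 315 with the mitochondrial share term. In DXM against control it was 13 with any count, 1051 with DESeq2, 395 with DESeq2 on the groups compared, 652 with the mitochondrial share term, and 0 to 4 with a library left out. In DXM against Rhy it was 9 with DESeq2 and 27 with DESeq2 on the groups compared. The cause of the difference between the tools was not tested.

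Of the 10 genes, 1 was called in DXM against model by DESeq2 on the groups compared (Hspb1), 1 in DXM against control by DESeq2 (Hspe1), and 3 with the mitochondrial share term in each drug group set against control. Counts at an unadjusted p under 0.05 follow, with the share of all genes in the same fit in brackets. In model against control the count was 1 with RLE scaling (9.74%) and 1 with model 1 and model 2 merged (4.99%). It was 1 without mitochondrially encoded genes (9.74%), 4 with the mitochondrial share term (12.3%) and 1 to 4 with a library left out (5.12% to 16.2%). In Rhy against model it was 1 with only the groups compared (5.19%), 1 with DESeq2 on them (3.74%) and 1 with the mitochondrial share term (6.13%). In DXM against model it was 0 with model 1 and model 2 merged (4.24%), 0 with the Hoxb13 term (6.08%) and 0 to 2 with a library left out (3.11% to 9.2%). In Rhy against control it was 6 with any count (7.87%), 4 with only the groups compared (6.36%) and 4 with DESeq2 on them (4.32%). It was 4 with DESeq2 (7.9%), 5 with the mitochondrial share term (17.7%) and 1 to 5 with a library left out (6.87% to 16.9%). In DXM against control it was 7 with any count (12.3%) and 1 to 7 with a library left out (9.48% to 23.5%).

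The replicate numbers did not pair the libraries: of 18 pairs of the same number, 6 had correlated deviations above 0.1 (-0.31 to 0.36). With the number as a replicate block, 0 genes were called in each comparison, and Dnajb1 in DXM against model changed sign to -0.025. Of the 10 genes, 4 were at an unadjusted p under 0.05 in model against control, beside 10.8% of all genes. In Rhy against control 5 were, beside 12.4%.

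Single log2 fold changes changed sign elsewhere too. In Rhy against model these were Hspa1b (0.12) and Hspd1 (0.23) with the mitochondrial share term, Hspd1 with the Hoxb13 term (0.023) and without mitochondrially encoded genes (0.0020), and Dnajb1 with model 1 and model 2 merged (-0.042). In DXM against model they were Dnajb1 with model 1 and model 2 merged (-0.029) and Hspe1 with the Hoxb13 term (0.082) and without mitochondrially encoded genes (0.022). With a library left out, the values that crossed 0 in model against control were Hspa8 (-0.0034 to 0.48), Dnajb1 (-0.029 to 0.20) and Hspb1 (-0.89 to 0.36). In Rhy against model they were Hspa1a (-0.61 to 0.29), Hspa1b (-0.37 to 0.30), Hsph1 (-0.076 to 0.46), Dnajb1 (-0.063 to 0.15), Hspa5 (-0.21 to 0.39) and Hspd1 (-0.18 to 0.17). In DXM against model they were Hspa1a (-1.25 to 1.51), Hspa1b (-0.76 to 1.25), Hsph1 (-0.25 to 0.68), Dnajb1 (-0.38 to 0.26), Hspa5 (-0.048 to 0.61) and Hspe1 (-0.21 to 0.19). Against control, Hspb1 crossed 0 for Rhy (-0.092 to 1.13), and Hspa1a (-0.47 to 2.13), Hspa1b (-0.16 to 1.85) and Dnajb1 (-0.25 to 0.39) for DXM, the last 3 of which were negative without DXM 3. Hspe1, Hsph1, Hspa5, Hspd1 and Hsp90aa1 stayed above 0 in every comparison with control under every alternative run. With 3 libraries a group, the 95% interval of each of the 10 genes spans more than 1 log2 unit, which limits what could be detected.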
